A study of Mus musculus with 18 samples.

Results

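The Reg family of mouse, the regenerating islet-derived C-type lectins, has 7 members in the deposited tables: Reg1, Reg2, Reg3a, Reg3b, Reg3d, Reg3g and Reg4. They were taken by symbol, and all 7 were found among the 49585 genes listed for Aire and Fezf2 and among the 21969 genes listed for Chd4. Total RNA had been sequenced from sorted medullary thymic epithelial cells (mTECs), a thymic stroma population known for transcribing genes of peripheral organs. There were 18 libraries in 6 groups of 3. Libraries labelled Aire KO came from C57BL/6 mice given as Aire knockouts and were set against C57BL/6 wild-type mice, the WT for Aire. Fezf2 KO libraries, also C57BL/6, were set against a separate wild-type group, the WT for Fezf2. The column names call the same Fezf2 libraries a conditional knockout, and which Cre was used was not given in the sources used here. Chd4 cKO libraries came from C57BL/6x129P2 mice with Chd4 flox/flox and Foxn1-Cre, a recombinase driven by a promoter of thymic epithelium, so it is not limited to the medulla. Their controls, the Chd4 control, were C57BL/6x129P2 mice with Chd4 flox/flox, so both of these groups carried the floxed alleles. The age of the mice was not given in the sources used here. Nothing states that the 3 libraries of a group are separate animals, so each p-value measures a spread that may be technical.

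Reg proteins are small secreted proteins built around a single C-type lectin domain. Reg3g and Reg3b are released by the gut epithelium and act on bacteria at the mucosal surface, and their transcription there rises with IL-22 signalling through STAT3. Reg1 and Reg2 are known from the acinar cells of the pancreas, Reg3d from the pancreas, and Reg4 from secretory cells of the colon. Reg3a is a close relative of both antimicrobial members, and the human protein of that name binds bacterial peptidoglycan. In mTECs, genes of this kind belong to the tissue-restricted transcripts that are displayed to developing T cells, and Aire is the factor best known for promoting them.

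Both the tables and the GRCm38 annotation place 6 of the members in one cluster of 98216 bases on chromosome 6, from 78370657 to 78468872. The order along it is Reg3b, Reg3d, Reg3a, Reg2, Reg1 and Reg3g, with Reg3d and Reg3g on the minus strand and the others on the plus strand. No other gene of the tables lay between them. Reg4 stands apart on chromosome 3, from 98222156 to 98236748 on the plus strand, and all 7 are annotated as protein coding. Reg1 and Reg2 shared 78.7% of the aligned bases of their coding sequences, Reg3b and Reg3g 75.9%, Reg3a and Reg3b 73.6%, and Reg3a and Reg3g 73.3%. Reg4 shared 50.1 to 53.8% with each of the other members. No stretch of 50 bases of any member's annotated transcripts occurred in another member. Stretches of 50 bases that also occur in transcripts of unrelated genes made up 3.65% of those of Reg1, 11.3% of those of Reg2 and none of those of the other 5 members. At 100 bases there was no sharing for any of the 7.

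The 150 bases before the RefSeq start of 5 members are shown because the results below turn on these neighbouring genes. The build is GRCm38.p6. The windows are chr6:78425833-78425982 (plus strand) for Reg1, chr6:78405005-78405154 (plus) for Reg2, chr6:78370735-78370884 (plus) for Reg3b, chr6:78468875-78469024 (minus) for Reg3g and chr6:78380559-78380708 (plus) for Reg3a. Capitals mark matches to TATAAA or to TTCNNNGAA, the spaced palindrome bound by STAT factors.
Reg1: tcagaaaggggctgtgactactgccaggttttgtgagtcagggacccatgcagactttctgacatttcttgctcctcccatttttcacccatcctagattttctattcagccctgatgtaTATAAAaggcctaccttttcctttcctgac
Reg2: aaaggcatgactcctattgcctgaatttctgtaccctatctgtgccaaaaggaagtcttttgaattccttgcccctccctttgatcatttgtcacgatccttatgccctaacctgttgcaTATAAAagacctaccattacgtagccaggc
Reg3b: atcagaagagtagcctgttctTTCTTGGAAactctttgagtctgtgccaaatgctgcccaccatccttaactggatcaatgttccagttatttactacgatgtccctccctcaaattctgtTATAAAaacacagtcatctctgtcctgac
Reg3g: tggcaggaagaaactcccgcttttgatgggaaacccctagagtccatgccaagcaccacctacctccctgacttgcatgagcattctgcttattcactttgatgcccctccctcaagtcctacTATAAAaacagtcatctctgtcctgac
Reg3a: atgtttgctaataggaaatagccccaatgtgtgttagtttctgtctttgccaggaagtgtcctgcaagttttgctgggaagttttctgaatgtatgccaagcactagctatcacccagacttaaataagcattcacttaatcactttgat
In the full 300-base windows of RefSeq, which run from 250 bases before the start to 50 after it, TATAAA on either strand occurred in 4 of the 7 members and in 13.6% of all 32851 windows. Counting the base at the RefSeq start as 0, it began at -30 in Reg1 and Reg2, at -29 in Reg3b and at -27 in Reg3g. Reg1 and Reg3g each held a further match on the opposite strand. The annotated genes of Reg1, Reg2 and Reg3b begin earlier, at 78422711, 78395623 and 78370657, so their RefSeq starts lie within those genes. TTCNNNGAA occurred in 2 of the 7, at -129 in Reg3b and at -238 in Reg3d, and in 8.3% of all windows. CANNTG, the E-box, occurred in all 7 members and in 72.3% of all windows. The windows of Reg3b and Reg3g were 68.6% identical over their alignment, the highest of the 21 pairs, and those of Reg1 and Reg2 56.4%.

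Exon reads per library ranged from 3571570 to 17220157, and 3 reads, taken as the floor, correspond to 0.174 to 0.84 CPM, the reads scaled to library size. Fezf2 stood at 9.09, 8.44 and 23.4 CPM in Fezf2 KO, against 653, 735 and 570 CPM in the WT for Fezf2. Chd4 stood at 24.6, 27.5 and 30.2 CPM in Chd4 cKO, against 55.4, 66.5 and 58.9 CPM in the Chd4 control. Aire was higher in the libraries labelled Aire KO, at 3737, 4088 and 3997 CPM, against 1942, 1810 and 2302 CPM in the WT for Aire. Which exons of Aire were deleted was not given in the sources used here. This level cannot check the label, and every direction below for Aire is that of the libraries labelled Aire KO. All 12 mTEC markers had reads in every comparison. Y-linked genes summed to over 50 CPM in 2 of 3 libraries labelled Aire KO, in 2 of 3 of the WT for Aire, in 1 of 3 of the Chd4 control and in none of the other groups, so these reads were not even across the groups.

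Per length of exon, Reg3g was the most abundant member in every group. In the libraries labelled Aire KO it averaged 240 ± 33.3 RPKM, which are reads scaled to library size and exon length, followed by Reg1 at 7.28 ± 2.07 and Reg3b at 2.65 ± 3.26 RPKM, whose ranges overlapped, and Reg4 at 0.216 ± 0.224 RPKM (SD, n = 3 each). The WT for Aire had Reg3g at 756 ± 217, Reg3b at 52.7 ± 12.1, Reg1 at 41.6 ± 15.8, Reg3a at 12.8 ± 0.71 and Reg4 at 8.44 ± 3.17 RPKM, and only Reg3b and Reg1 overlapped among these. By their means, Reg2 and Reg3d were the lowest members of every group other than the libraries labelled Aire KO, where they and Reg3a had no read at all. In the Chd4 control Reg2 overlapped Reg3a and Reg4. It had 14.7 and 20.0 RPKM in control libraries A and B, above both, and 2.01 RPKM in control library C, below both.

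In the Fezf2 KO group the order was Reg3g at 910 ± 88.6, Reg3b at 78.5 ± 29.7, Reg1 at 22.8 ± 7.03, Reg3a at 15.2 ± 8.97 and Reg4 at 14.1 ± 2.99 RPKM. Its WT had Reg3g at 1097 ± 115, Reg3b at 173 ± 55.5, Reg1 at 71.7 ± 12.9, Reg4 at 16.4 ± 1.59 and Reg3a at 8.96 ± 2.86 RPKM (SD, n = 3 each). Reg3a and Reg4 overlapped in the Fezf2 KO and not in its WT, while Reg1 and Reg3a overlapped in the Fezf2 KO.

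In the Chd4 cKO group Reg3g averaged 1187 ± 256, Reg1 329 ± 111.6 and Reg3b 149 ± 71.2 RPKM, and the lowest Reg1 library, at 202 RPKM, lay just below the highest Reg3b library, at 207 RPKM. The Chd4 control had Reg3g at 2409 ± 651, Reg3b at 168 ± 35.7, Reg1 at 62.6 ± 8.71, Reg4 at 15.9 ± 2.17 and Reg3a at 13.2 ± 3.31 RPKM, and among these only Reg4 and Reg3a overlapped (SD, n = 3 each). Reg1 was thus the second member in Chd4 cKO and the third in its control. The exon length given for Reg3g is 2114 bases in the Aire and Fezf2 tables and 771 bases in the Chd4 table, and that of Reg3b is 1142 and 861 bases, so RPKM levels are compared within a table. The order of members within each group was the same with either set of lengths.

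**Figure D1:**
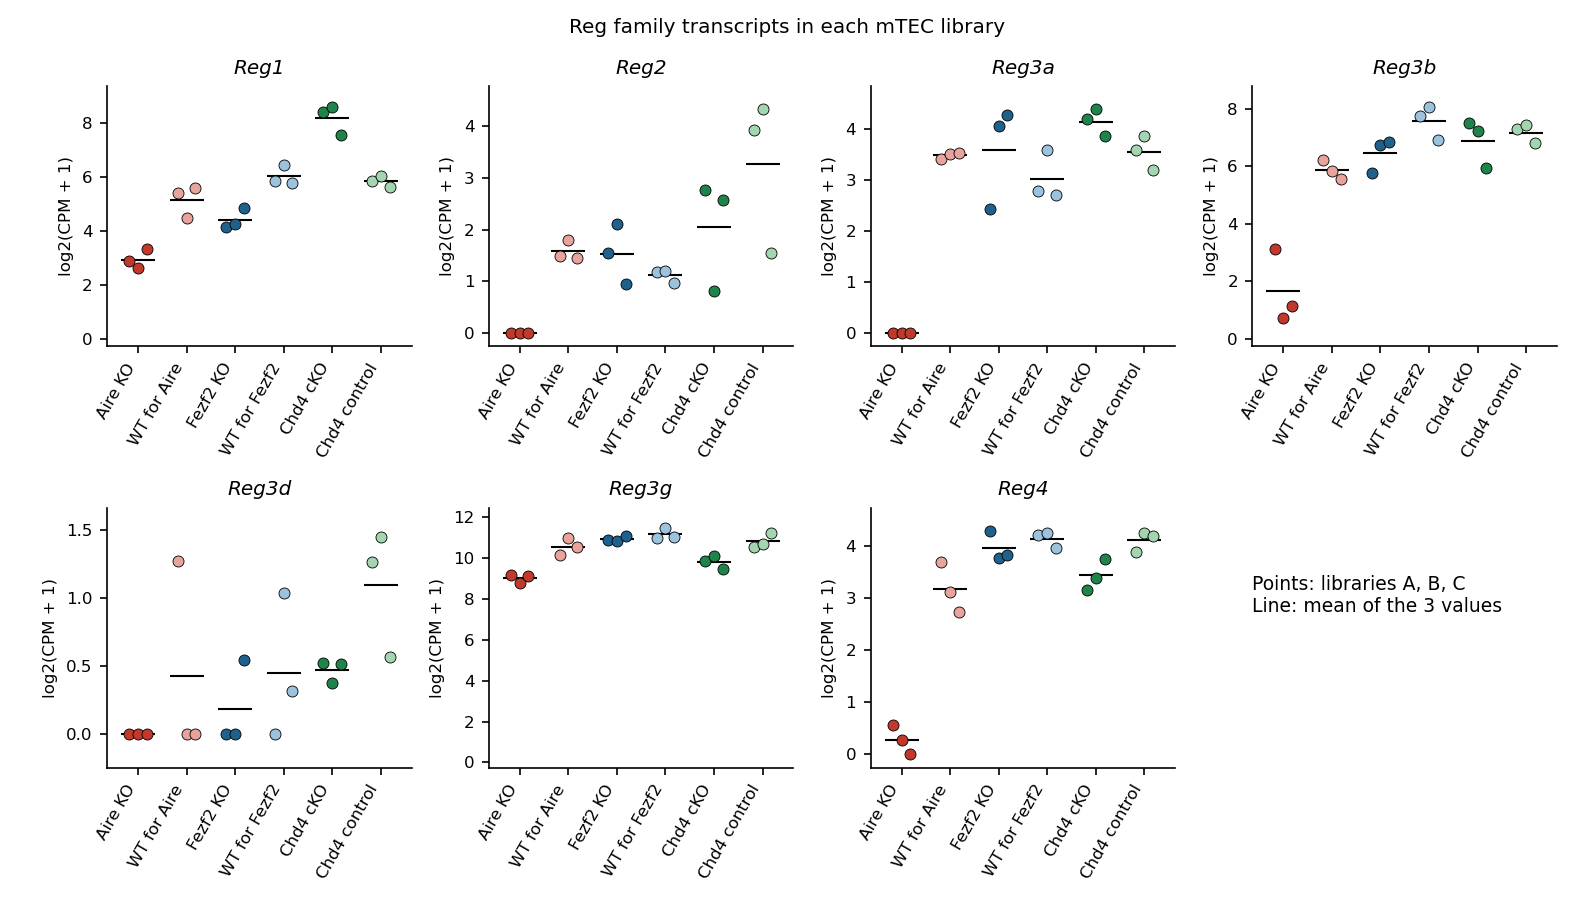
Level of each Reg family member, as log2(CPM + 1), in the 3 libraries of each of the 6 groups, with the mean of the 3 values as a line. Reg3a has no read in the libraries labelled Aire KO, Reg1 is highest in Chd4 cKO, and Reg3g is the highest member throughout.

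In the Aire comparison 5 members were tested, and 5 were called lower in the libraries labelled Aire KO (Reg1, Reg3a, Reg3b, Reg3g and Reg4), each without overlap between the groups. Reg1 and Reg3g had enough reads in both groups. Reg3a, Reg3b and Reg4 passed the filter on low counts only through the WT for Aire, where they are high, so their calls had to be lower and their number is no support for a common direction. Of all 14949 genes tested, 15.1% were called in either direction, 5.73% higher and 9.37% lower, and 17.1% lay wholly below the WT without overlap (edgeR quasi-likelihood test, Benjamini-Hochberg adjusted p under 0.05). Across bulk libraries, fewer cells of a type and less RNA per cell cannot be told apart.

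Reg3g, the lectin that acts on Gram-positive bacteria, had 581, 445 and 562 CPM in libraries labelled Aire KO, against 1139, 2045 and 1472 CPM in the WT for Aire. Every WT library lay well above every library labelled Aire KO. The log2 fold change was -1.55 (SE 0.18, edgeR adjusted p = 9.15e-05), a 2.93-fold lower level, and it remained the most abundant member. Reg3b, the other well-studied antimicrobial member, had 7.62, 0.643 and 1.18 CPM in libraries labelled Aire KO, against 73.5, 55.9 and 45.98 CPM in the WT for Aire. Its log2 fold change was -4.23 (SE 0.49, edgeR adjusted p = 8.28e-05), and without the first library labelled Aire KO, which held 32 of the group's 40 reads, it was -5.97 (adjusted p = 1.7e-06).

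No read of Reg3a was found in any of the libraries labelled Aire KO, against 9.69, 10.3 and 10.6 CPM from 143 reads in the WT for Aire. With 3 reads over the group as the floor it was at least 44.5-fold lower (edgeR adjusted p = 7.13e-05). Its libraries were the most even of any member in the WT for Aire. Reg4 had 2 reads in the first, 1 in the second and 0 in the last library labelled Aire KO, against 59, 34 and 26 reads in the WT for Aire. The ratio of the WT for Aire over the libraries labelled Aire KO, scaled by library size, was 37.0 (exact 95% interval 12.3 to 182, counting error only; edgeR adjusted p = 3.67e-04).

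Reg1, the pancreatic member, had 6.43, 5.14 and 8.98 CPM in libraries labelled Aire KO, against 41.0, 21.3 and 46.8 CPM in the WT for Aire. The difference was -2.41 on the log2 scale (SE 0.32, edgeR adjusted p = 2.18e-04), a 5.32-fold lower level. Reg2, its nearest relative by coding sequence, had 0 reads in the libraries labelled Aire KO, against 9, 11 and 8 reads in the WT for Aire, at least 8.7-fold lower. It was too low to be tested under the filter used. Reg3d also had 0 reads there, against 7, 0 and 0 reads in the WT for Aire, which is too few to compare.

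With a term for Y-linked reads in the fit, added after the data were seen, the calls of Reg3g and Reg1 stood, with log2 fold changes of -1.52 and -2.36. Those of Reg3b (-4.36), Reg3a and Reg4 stood too, but their direction was fixed by the filter. Markers of other cells also moved: of 12 macrophage, neutrophil and dendritic cell markers 7 were tested, of which 4 were lower and 1 higher. Ly6g averaged 0.0794 ± 0.138 CPM in the libraries labelled Aire KO and 41.2 ± 5.91 CPM in the WT for Aire (SD, n = 3 each). In the same order Adgre1 averaged 0.85 and 25.65 CPM, and Mpo 1.01 and 108.6 CPM. These 3 of the 4 lower markers passed the filter only through the WT for Aire, so their calls had to be lower. The summed level of that list was 1090 to 1728 CPM in the libraries labelled Aire KO and 1180 to 1382 CPM in the WT for Aire. Most of it was Lyz2, which had no call. Lyz2 averaged 1223 ± 366 CPM in the libraries labelled Aire KO and 1002 ± 123 CPM in the WT for Aire (SD, n = 3 each). The sum therefore does not show the fall of the 4 lower markers. The part of these cells in the Reg values was not tested. Thymocyte markers summed to 97.2 to 163 CPM in libraries labelled Aire KO and 90.4 to 174 CPM in the WT for Aire.

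In the Fezf2 comparison, 1 of the 5 members tested was called lower (Reg1) and none higher. Over the 15695 genes tested, 4.87% were called in either direction, 2.48% higher and 2.4% lower. Reg3g and Reg4 stood near their WT levels, and Reg3a and Reg2 were at or above them on average without passing the test or having enough reads for it.

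Reg1 had 16.8, 18.1 and 27.98 CPM in Fezf2 KO, against 56.0, 85.1 and 53.9 CPM in the WT for Fezf2. Every Fezf2 KO library lay below every WT library. The log2 fold change was -1.64 (SE 0.28, edgeR adjusted p = 0.0107), a 3.11-fold lower level, and the call was lost without Fezf2 KO library A (-1.50, adjusted p = 0.0807) or library B (-1.54, adjusted p = 0.0821). Reg3b had 52.8, 107 and 115 CPM in Fezf2 KO, against 214, 262 and 119 CPM in the WT for Fezf2. These groups did not overlap, as held for 13.4% of all genes tested in that direction, but the change of -1.12 did not pass (SE 0.35, edgeR adjusted p = 0.104). DESeq2 put it past the threshold (adjusted p = 0.0259), and so did leaving out WT for Fezf2 library C (-1.38, adjusted p = 0.0498). In the authors' deposited table the q value of Reg3b in this comparison was 0.0271.

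Reg3g had 1902, 1841 and 2148 CPM in Fezf2 KO, against 2029, 2825 and 2096 CPM in the WT for Fezf2, with overlapping ranges (log2 fold change -0.24, SE 0.2, edgeR adjusted p = 0.564). Reg4 had 18.5, 12.6 and 13.1 CPM in Fezf2 KO, against 17.4, 17.8 and 14.4 CPM in the WT for Fezf2 (-0.17, SE 0.28, edgeR adjusted p = 0.79). Reg3a had 4.37, 15.6 and 18.4 CPM in Fezf2 KO, against 5.87, 11.0 and 5.54 CPM in the WT for Fezf2. Here 1 Fezf2 KO library was the lowest of the 6 and the other two were the highest (0.77, SE 0.52, edgeR adjusted p = 0.461). Reg2, with 31 reads in Fezf2 KO and 15 in its WT, and Reg3d, with 2 and 5 reads, were not tested.

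Thymocyte markers moved in the same libraries. Their summed level was 224 to 290 CPM in Fezf2 KO and 463 to 857 CPM in the WT for Fezf2, all 15 had reads, and 8 of 15 were called lower. Both Fezf2 groups lay above the WT for Aire, where that list stood at 94.3 to 182 CPM. B cell markers summed to 57.8 to 67.1 CPM in Fezf2 KO and 103 to 230 CPM in the WT for Fezf2, and 1 of 6 tested, Ighm, was called lower (-1.88, edgeR adjusted p = 0.0223). The part of these cells in the Reg values was not tested. Without WT for Fezf2 library B, 2034 genes were called, against 765 with it, and Reg1 then had a log2 fold change of -1.40 (edgeR adjusted p = 0.00115).

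**Figure D2:**
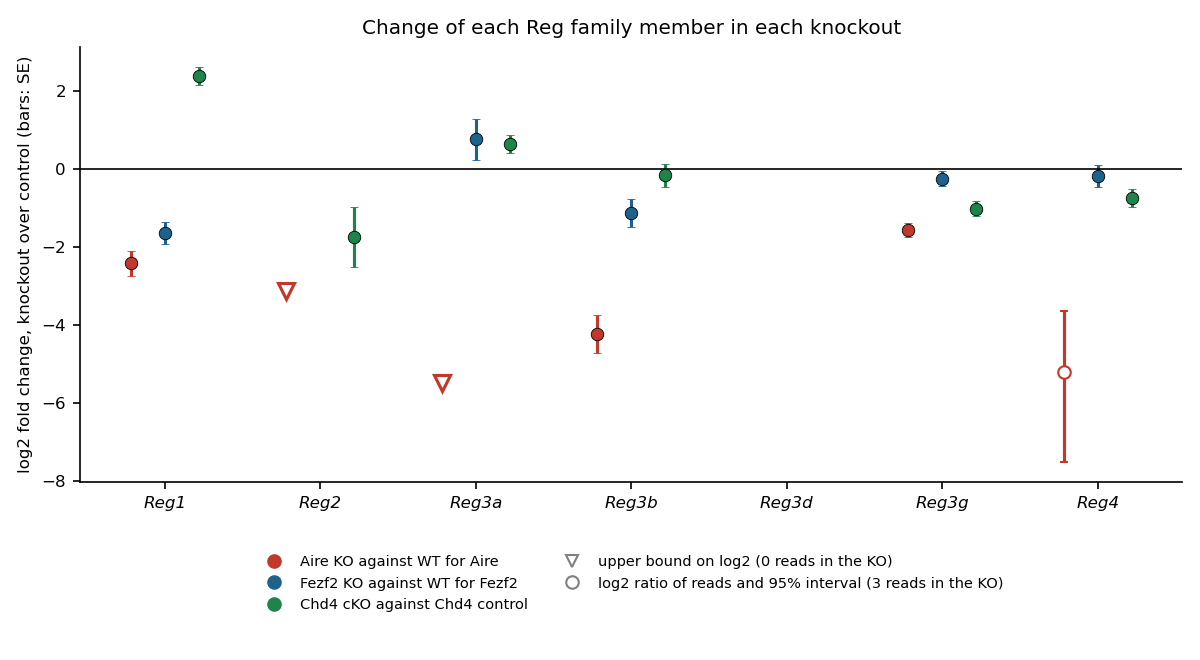
Log2 fold change of each member, knockout over its own control, with the SE as bars, for Aire, Fezf2 and Chd4. Open triangles are upper bounds where the libraries labelled Aire KO had 0 reads, and the open circle is the ratio of reads for Reg4 with its 95% interval. Reg1 is low in libraries labelled Aire KO and in Fezf2 KO and high in Chd4 cKO, at -2.41, -1.64 and 2.40.

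In the Chd4 comparison 6 members were tested, and 1 was called higher (Reg1) and 2 lower (Reg3g and Reg4). Calls were common in this comparison, at 28.6% of the 15182 genes tested, 14.3% in each direction, and 44.3% of genes had groups without overlap, 22.1% in each direction. Beside such shares these counts are no result about the family, and the members are described singly. Reg1 had 333, 378 and 185 CPM in Chd4 cKO, against 56.6, 64.6 and 48.8 CPM in the Chd4 control. All cKO libraries lay far above all control libraries. The log2 fold change was 2.40 (SE 0.23, edgeR adjusted p = 6.45e-05), a 5.29-fold higher level. Without any single library the log2 fold change stayed between 2.20 and 2.66.

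Reg3g had 928, 1114 and 718 CPM in Chd4 cKO, against 1496, 1653 and 2429 CPM in the Chd4 control. The groups did not overlap, and the change was -1.01 on the log2 scale (SE 0.19, edgeR adjusted p = 0.00278), a 2.02-fold lower level. Reg4 had 7.91, 9.43 and 12.4 CPM in Chd4 cKO, against 13.8, 17.8 and 17.2 CPM in the Chd4 control, also without overlap (-0.74, SE 0.23, edgeR adjusted p = 0.0348). The call for Reg4 was lost without cKO library A (-0.60, adjusted p = 0.106), cKO library B (-0.69, 0.104), control library B (-0.65, 0.11) or control library C (-0.68, 0.0902). In the authors' deposited table its q value was 0.0556.

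Reg3a had 17.2, 20.0 and 13.5 CPM in Chd4 cKO, against 11.0, 13.6 and 8.14 CPM in the Chd4 control, where the lowest cKO library lay just under the highest control library. The change of 0.65 did not pass (SE 0.24, edgeR adjusted p = 0.0655), and it passed without cKO library C (0.79, adjusted p = 0.0486) or control library B (0.86, adjusted p = 0.0454). Reg3b had 178, 148 and 60.6 CPM in Chd4 cKO, against 155, 169 and 110 CPM in the Chd4 control, with overlapping ranges (-0.16, SE 0.3, edgeR adjusted p = 0.739). Reg2 had 5.75, 0.762 and 4.92 CPM in Chd4 cKO, against 14.1, 19.1 and 1.91 CPM in the Chd4 control. It varied more than any other tested member in both groups (-1.74, SE 0.78, edgeR adjusted p = 0.118), and its value turned on single libraries. It was called lower without control library C (-2.26, adjusted p = 0.0244), and had -1.10 without cKO library B (adjusted p = 0.269) and -1.14 without control library B (adjusted p = 0.391). Reg3d, at 3, 5 and 2 reads in Chd4 cKO and 5, 7 and 2 reads in the Chd4 control, was not tested.

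The makeup of the family shifted accordingly. Reg1 supplied 16.5 to 20.3% of the summed RPKM of the 7 members in Chd4 cKO and 1.61 to 2.89% in the Chd4 control. Reg3g supplied 66.3 to 75.1% in Chd4 cKO and 86.9 to 93.7% in the Chd4 control. With the lengths of the Aire table, Reg3g supplied 95.1 to 97.0% in the libraries labelled Aire KO and 79.8 to 91.0% in the WT for Aire, and 85.5 to 90.9% in Fezf2 KO and 77.7 to 84.2% in the WT for Fezf2. Reg3g thus took its highest shares in the libraries labelled Aire KO.

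**Figure D3:**
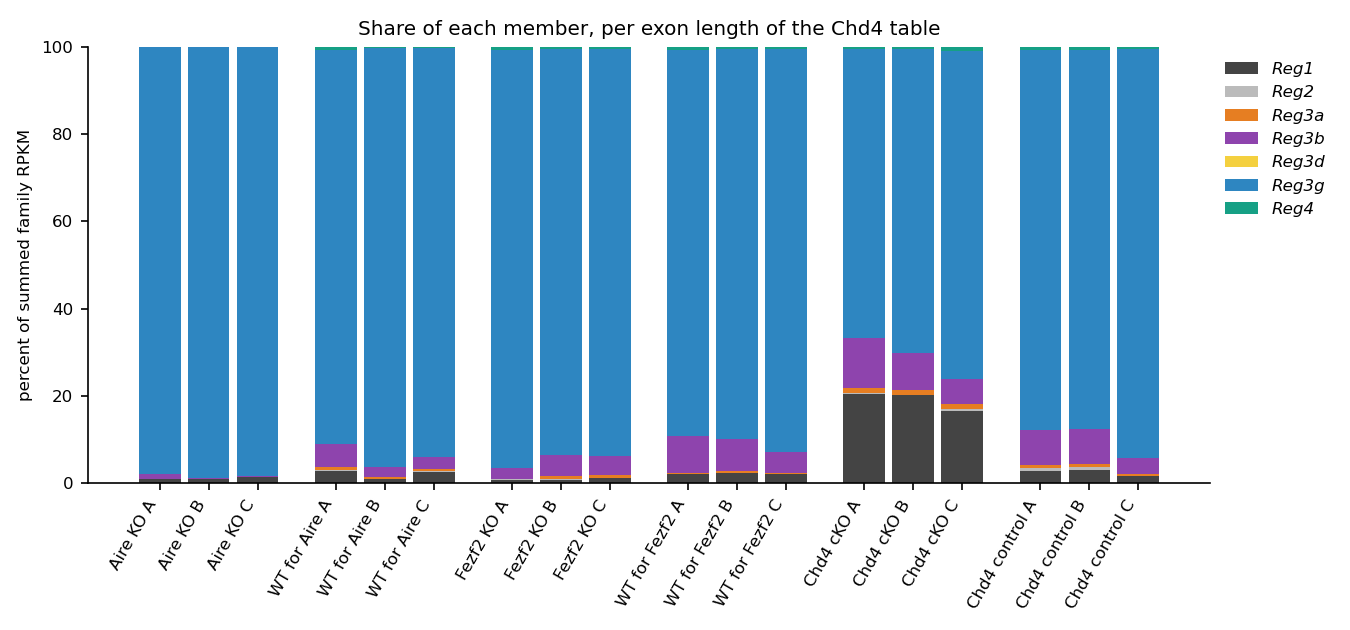
Share of each member in the summed RPKM of the family in each of the 18 libraries, with the exon lengths of the Chd4 table used throughout. Reg3g fills most of every bar, and Reg1 reaches 16.5 to 20.3% in Chd4 cKO, against 1.61 to 2.89% in the Chd4 control.

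Within a library, the ratio of a pair of members does not depend on depth or scaling. Ratios were compared by exact two-sided permutation of 3 against 3 libraries, for which the smallest possible p is 0.1, so no pair could pass. Adjustment ran over the 3 (Aire), 15 (Fezf2) and 21 (Chd4) pairs whose members had reads in every library. Pairs that share a member are not independent, and those given here were picked after their values were seen. The log2 ratio of Reg1 over Reg3g averaged -1.67 ± 0.257 in Chd4 cKO and -5.01 ± 0.54 in the Chd4 control (SD, n = 3 each; exact permutation p = 0.1, adjusted 0.21). In Fezf2 KO it averaged -6.58 ± 0.291, and in the WT for Fezf2 -5.17 ± 0.114 (SD, n = 3 each; exact permutation p = 0.1, adjusted 0.3). Reg3b over Reg3g averaged -8.19 ± 1.70 in libraries labelled Aire KO, against -4.72 ± 0.667 in the WT for Aire (SD, n = 3 each; exact permutation p = 0.1, adjusted 0.3).

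Along the cluster, neighbouring genes went different ways. In Chd4 cKO, Reg1 had a log2 fold change of 2.40 while Reg3g, the next gene, had -1.01, and Reg2 on its other side had -1.74 without a call. In Fezf2 KO, Reg1 at -1.64 lay between the untested Reg2 and Reg3g at -0.24. In the libraries labelled Aire KO the 3 clustered genes with reads were lower and the other 3 had none, and Reg4, on another chromosome, was low as well. The direction of Reg3a, Reg3b and Reg4 was fixed by the filter, and Reg2 and Reg3d were not tested. No common direction is drawn from them. Of the 8 other genes within 500 kb of the cluster, only Ctnna2, a cell adhesion protein of neurons, could be tested. Its log2 fold changes were 0.49 in the libraries labelled Aire KO, 0.28 in Fezf2 KO and -0.08 in Chd4 cKO (edgeR adjusted p = 0.232, 0.662 and 0.812).

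**Figure D4:**
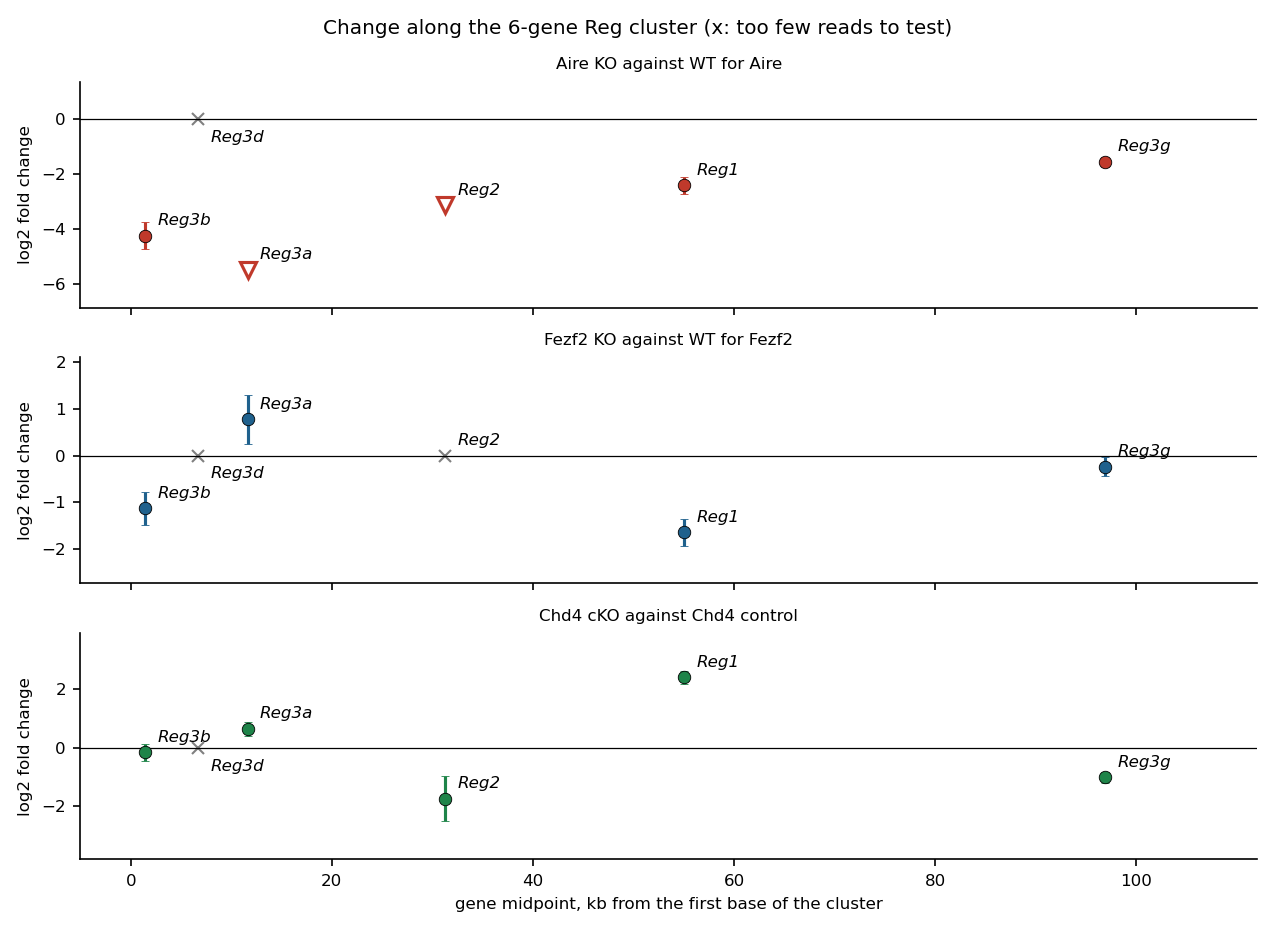
Log2 fold change of the 6 clustered members, with SE, against the distance of each gene's midpoint from the first base of the cluster, in kb, for the 3 knockouts. Open triangles are upper bounds where the libraries labelled Aire KO had 0 reads, and crosses mark members with too few reads to test. Reg1 and its neighbour Reg3g lie on opposite sides of 0 in Chd4 cKO, at 2.40 and -1.01.

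Whether a member responded differently to the 3 knockouts was tested in one edgeR fit of all 18 libraries, as the difference between log2 fold changes. Aire and Fezf2 libraries shared a sequencing run and the Chd4 libraries another, and each effect was taken within its run. For Reg1, the Chd4 effect exceeded the Aire effect by 4.83 (SE 0.44, edgeR adjusted p = 2.86e-07) and the Fezf2 effect by 4.08 (SE 0.41, edgeR adjusted p = 1.63e-06), where 16.5% (11.4% higher, 5.11% lower) and 14.9% (8.03% higher, 6.87% lower) of the 16169 genes were called. The Fezf2 effect on Reg1 differed from the Aire effect by 0.75, which did not pass (SE 0.45, edgeR adjusted p = 0.284).

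For Reg3b the Fezf2 effect exceeded the Aire effect by 3.09 (SE 0.71, edgeR adjusted p = 0.00422) and the Chd4 effect did so by 4.09 (SE 0.7, edgeR adjusted p = 3.63e-04). The Fezf2 effect also exceeded the Aire effect on Reg3g, by 1.29 (SE 0.31, edgeR adjusted p = 0.00574), in a contrast with 16.9% of genes called, 11.4% higher and 5.51% lower. The Chd4 effect on Reg3g differed from the Aire effect by 0.56 and from the Fezf2 effect by -0.74, and neither passed (edgeR adjusted p = 0.25 and 0.116). For Reg3a and Reg4 the Aire effect was also the lower one, with edgeR adjusted p of 1.35e-05 and 2.3e-05 against Fezf2, but these fitted sizes rest on 0 and 3 reads in libraries labelled Aire KO and depend on the prior count of the fit. In all, 10 of 18 differences passed. The 18 reuse the same 3 effects per member and are not independent, so the count is no result about the family. Those that passed include that of Reg2 between Fezf2 and Aire. It is no support, since Reg2 was too low to test in either comparison and entered this fit through the Chd4 libraries. Strain, run and annotation differed between the Chd4 libraries and the others, and their parts in these differences cannot be told apart from that of the gene deleted.

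The wild-type groups, of one strain and one run, gave the spread of the family without a knockout. None of 5 members tested was called in edgeR between the WT for Fezf2 and the WT for Aire, where 0.128% of 15656 genes were called, 0.0958% higher and 0.0319% lower. At an unadjusted p under 0.05 there were 3 members. The share of all genes at that threshold was not counted, so this number is no result about the family. DESeq2 called 433 genes, of which 1 was a member, Reg3b. Reg3b was higher in every library of the WT for Fezf2 than in any of the WT for Aire, with a log2 fold change of 1.71 (SE 0.3, edgeR adjusted p = 0.0711), and Reg1 and Reg4, at 0.78 and 0.93, did not overlap either. Of all genes tested 20.4% did not overlap, 10.4% in that direction. Without WT for Fezf2 library B or C, Reg3b passed (adjusted p = 0.00555 and 0.0251). With the term for Y-linked reads it had 1.78 and an adjusted p of 0.602. Levels of Reg3b, Reg1 and Reg4 are therefore read against each knockout's own control.

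Other genes of mucosal defence were counted as a setting for the family. Counts in this and the following lists stand beside 5.73% of all genes called higher and 9.37% lower in libraries labelled Aire KO, 2.48% and 2.4% in Fezf2 KO, and 14.3% each way in Chd4 cKO, so they are not compared between knockouts. In every list, genes with almost no reads in a knockout passed the filter only through its control. Their calls had to be lower and are no support for a common direction. In the libraries labelled Aire KO, 13 of 23 tested genes of mucosal defence were lower and 1 was higher, with a median log2 fold change of -1.30, where the median of all genes was 0. S100a9, a subunit of the metal-binding protein calprotectin, averaged 16.0 ± 3.26 CPM in the libraries labelled Aire KO and 120 ± 15.8 CPM in the WT for Aire (-2.90, edgeR adjusted p = 4.88e-07). Slpi, a protease inhibitor of mucosal fluids, averaged 7.24 ± 1.66 CPM in the libraries labelled Aire KO and 53.9 ± 22.3 CPM in the WT for Aire (-2.90, edgeR adjusted p = 3.62e-05), and Retnlb, a goblet cell protein that acts on bacteria, had no read in libraries labelled Aire KO and 4.25 ± 0.713 CPM in the WT for Aire (SD, n = 3 each).

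In Fezf2 KO, 3 of 25 mucosal defence genes were lower and 2 higher, with a median of -0.12 beside -0.03 for all genes. Nos2, the inducible nitric oxide synthase, averaged 76.4 ± 20.9 CPM in Fezf2 KO and 383 ± 164 CPM in the WT for Fezf2 (SD, n = 3 each; -2.33, edgeR adjusted p = 0.00651), and Ltf, lactoferrin, was higher by 1.69 (edgeR adjusted p = 0.0483). In Chd4 cKO, 15 of 23 were lower and 1 higher, with a median of -1.18 beside 0 for all genes. Lyz1, the Paneth cell lysozyme, averaged 238 ± 14.3 CPM in Chd4 cKO and 874 ± 229 CPM in the Chd4 control (SD, n = 3 each; -1.88, edgeR adjusted p = 3.15e-05). Reg3g and Reg4 thus moved the same way as most of this list in Chd4 cKO and Reg1 the opposite way.

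Exocrine pancreas genes, the company of Reg1 and Reg2 in the pancreas, were lower in 7 of 9 tested members in the libraries labelled Aire KO (median -2.86), in 1 of 13 in Fezf2 KO (median -0.54) and in 6 of 14 in Chd4 cKO (median -0.82), where 9.37%, 2.4% and 14.3% of all genes were lower, and none was higher. Pnlip, pancreatic lipase, averaged 0.555 ± 0.375 CPM in Chd4 cKO and 5.06 ± 2.44 CPM in the Chd4 control (SD, n = 3 each; -3.01, edgeR adjusted p = 0.00364). It passed the filter only through the Chd4 control, so its call had to be lower and no contrast with Reg1 is drawn from it. Intestinal genes were lower in 8 of 19 tested members and higher in 2 in the libraries labelled Aire KO (median -1.17). In Fezf2 KO 9 of 21 were lower and 1 higher (median -1.10), and in Chd4 cKO 12 of 22 were lower and none higher (median -0.56). Guca2a, the gut peptide guanylin, averaged 5.94 ± 2.36 CPM in Fezf2 KO and 46.5 ± 31.3 CPM in the WT for Fezf2 (SD, n = 3 each; -2.94, edgeR adjusted p = 0.0103), while Reg3g and Reg4 had no call there.

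Microfold cell genes, markers of the antigen-sampling cells of the gut that mTECs also express, were lower in 7 of 12 in the libraries labelled Aire KO, in 1 of 12 in Fezf2 KO, where 2 were higher, and in 5 of 12 in Chd4 cKO, where 1 was higher, beside the same shares of all genes. Ccl20, a chemokine of this list, was lower in each comparison, with log2 fold changes of -1.62, -1.52 and -1.93 for Aire, Fezf2 and Chd4 (edgeR adjusted p = 2.98e-05, 0.00848 and 5.6e-06).

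Genes of IL-22, IL-17 and STAT3 signalling, the inputs known to raise Reg3b and Reg3g in gut, had 2 higher and 2 lower of 20 tested in the libraries labelled Aire KO (median -0.15) and 2 higher and none lower of 21 in Fezf2 KO (median 0.26). Chd4 cKO had 9 higher and 2 lower of 21, with a median of 0.28, where 14.3% of all genes were called in each direction. Il22ra1, of this list, was too low to test in the Aire and Fezf2 comparisons, with group means of 0.143 to 0.615 CPM. Il17re, the IL-17C receptor chain, averaged 12.7 ± 0.854 CPM in the libraries labelled Aire KO and 37.7 ± 7.52 CPM in the WT for Aire (-1.57, edgeR adjusted p = 2.36e-04). It averaged 15.6 ± 2.34 CPM in Chd4 cKO and 36.4 ± 1.39 CPM in the Chd4 control (SD, n = 3 each; -1.25, edgeR adjusted p = 2.92e-04). Nfkbiz was also lower in the libraries labelled Aire KO (-0.86, edgeR adjusted p = 0.00142). Stat3 and Il17ra were higher there, by 0.55 and 0.66 (edgeR adjusted p = 0.00239 and 0.0114). Osmr, the oncostatin M receptor, was higher by 1.14 in Chd4 cKO (edgeR adjusted p = 2.15e-04), and Lifr, the leukaemia inhibitory factor receptor, by 2.54 in Fezf2 KO (edgeR adjusted p = 0.00197). Among genes proposed as Reg receptors, Extl3 and Egfr were higher in Chd4 cKO, by 0.59 and 0.81 (edgeR adjusted p = 0.0388 and 0.0107), 2 of 4 tested, and none of 3 tested in the libraries labelled Aire KO and none of 5 in Fezf2 KO was called.

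Markers of the cells in the sort were counted beside these lists. Of 12 mTEC markers, 4 were higher and 2 lower in the libraries labelled Aire KO, 1 higher and 1 lower in Fezf2 KO, and 3 higher and 4 lower in Chd4 cKO. That list holds the targeted genes Aire and Fezf2. Both were among the 4 higher in the libraries labelled Aire KO, at 0.97 and 0.48 (edgeR adjusted p = 9.77e-05 and 0.0413). Of 10 cortical thymic epithelial markers, 2 were higher and 2 lower in the libraries labelled Aire KO, 2 higher and none lower in Fezf2 KO, and 2 higher and 2 lower in Chd4 cKO. In Chd4 cKO no thymocyte marker of 13 tested was called, 1 B cell marker was higher and 1 lower of 6, and 1 macrophage, neutrophil or dendritic cell marker was higher and 4 lower of 9. The summed level of that last list was 825 to 1103 CPM in Chd4 cKO and 1255 to 1485 CPM in the Chd4 control, and its part in the lower Reg3g and Reg4 was not tested. Fibroblast and endothelial markers had 2 higher and 4 lower of 8 in the libraries labelled Aire KO, none called of 8 in Fezf2 KO and 2 lower of 7 in Chd4 cKO.

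Over the 12 Aire and Fezf2 libraries, which share the groups that differ, the genes of at least 5 CPM whose log2(CPM + 1) followed each member most closely were listed as a description among 13116 genes. For Reg3g they were Isg15, Ltbr, Tff3, Apol9a and Irf7, with Pearson's r between 0.975 and 0.98. For Reg3b they were Mbl2, Rhcg, Csn1s1, Lce1m and Npy (0.965 to 0.981), and for Reg3a Pla2g1b, Cst10, Igsf1, Miat and Igfn1 (0.949 to 0.966). For Reg1 they were Ifi27l2b, Apoa1, Gss, Ush1c and Saa1 (0.956 to 0.974), and for Reg4 Fgb, Fgg, Zp3, Krt87 and Oas1e (0.982 to 0.992). Among members, the closest pair was Reg3b and Reg4, at 0.954, although they lie on different chromosomes, and the least close was Reg1 and Reg3a, at 0.752. All 12 points come from one run, and the libraries labelled Aire KO are the lowest for each of these members.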

How the data were processed

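Per the labels' protocols, RNA from sorted mTECs was extracted with a Maxwell 16 system, and the SMART-seq v4 kit was used for the libraries. Trimmed single-end data with Ion Torrent barcodes were used, per the file headers. The submitters' processing notes list DESeq2, with no version, beside mm10 and GRCm38. Which aligner was used, and how strand and multiply matching reads were treated, was not given in the sources used here. The authors deposited counts, total exon reads per gene and library, and a summary table with the log2 mean RPKM of each group and p-values and q-values of their comparisons. Column names show the group and barcode without a replicate number, and libraries are called A, B and C by barcode order, and 216 further per-library columns were not used. The Aire and Fezf2 tables and the Chd4 table share 21875 gene IDs. Table starts were raised by 1, after which all 7 members had the GRCm38 positions.

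Counts were fitted with edgeR 4.0.16 in R 4.3.3 (TMM, filterByExpr, quasi-likelihood F test, Benjamini-Hochberg adjustment over all genes tested, threshold 0.05), 6 libraries per comparison. Biological coefficients of variation were 0.183 (Aire), 0.279 (Fezf2), 0.149 (Chd4) and 0.28 (WT groups). The SE is the size of the log2 fold change over the square root of F. The fit was tested on simulated counts. CPM are scaled by TMM, RPKM by the exon reads of each library. Where a group had 0 reads the bound uses 3 reads over the group, and intervals cover counting error only. Alternatives were other scalings, DESeq2 1.42.0, other filters, a fit of 12 libraries and leaving out each library. A library counted as holding Y-linked reads above 50 CPM, which was set with these values known. Coding sequences were aligned with Biopython 1.88. Named genes were all members, the targeted genes, genes within 500 kb of the cluster, up to 3 called genes per list and comparison with the largest change, of which examples are given, and the 5 closest correlates per member. Lyz2, Il22ra1 and Stat3 were named outside that rule. The members and lists were chosen with earlier results of these data known.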

Additional observations from a re-analysis of the deposited data

Results flagged for a closer look

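The effect of a knockout on a member differed between knockouts for 10 of the 18 differences tested in the edgeR fit of all 18 libraries, given as differences of log2 fold changes. Of all 16169 genes, 16.9% were called for Fezf2 minus Aire, 16.5% for Chd4 minus Aire and 14.9% for Chd4 minus Fezf2. The 18 differences reuse the same 3 effects per member and are not independent, so their count is no result about the family. Against the Aire effect, the Fezf2 effect was higher by 3.09 for Reg3b, by 1.29 for Reg3g, by 4.88 for Reg4, by 9.62 for Reg3a and by 7.31 for Reg2. Against the Aire effect, the Chd4 effect was higher by 4.83 for Reg1, by 4.09 for Reg3b, by 4.36 for Reg4 and by 9.54 for Reg3a. Against the Fezf2 effect, the Chd4 effect was higher by 4.08 for Reg1. The sizes for Reg3a, Reg2 and Reg4 against Aire are fitted values that rest on 0, 0 and 3 reads in libraries labelled Aire KO and are not bounds. Reg2 was too low to test in the Aire and Fezf2 comparisons and entered this fit through the Chd4 libraries, so its difference is no support.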

How the results depend on the processing

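In every alternative run, Reg1 and Reg3g stayed called lower in the libraries labelled Aire KO. In Chd4 cKO the rise of Reg1 and fall of Reg3g also kept direction and call. Reg3a, Reg3b and Reg4 stayed called lower in the libraries labelled Aire KO too. Under the filter used they entered only through the WT for Aire, so this is no support for their direction. Of 274 single-member values under alternatives, which include theirs, 255 kept direction and call, 12 gained a call and 6 lost it. The 1 reversed value was Reg3b in Chd4 cKO without cKO library C, at 0.18, in a range of -0.44 to 0.18 with each library left out. The count of members called was 5 in libraries labelled Aire KO. It was 6 with no filter on low counts and with at least 1 CPM in 3 libraries, where Reg2 was added. Its fitted -6.19 (edgeR adjusted p = 0.00221 and 0.00646) rests on 0 reads in these libraries. In Chd4 cKO the count was 3, became 4 with no filter, and ranged from 2 to 4 with libraries left out. The count of members called in Fezf2 KO was 1, became 2 with DESeq2 and with no filter on low counts, and ranged from 0 to 2 when libraries were left out. Between WT for Fezf2 and WT for Aire it was 0, became 1 with DESeq2, with no filter and with all 12 libraries in one fit, and ranged from 0 to 1 with libraries left out. Genes called in libraries labelled Aire KO numbered 2257, and 3466 with no filter. In Fezf2 KO they numbered 765, then 1398 with DESeq2, 1387 with no filter and 1460 with 12 libraries, and 169 to 2034 with libraries left out. Between the WT groups they numbered 20, then 433, 455 and 292 in the same 3 settings, 0 with the term for Y-linked reads, and 0 to 636 with libraries left out. The split of these Aire calls, 856 higher and 1401 lower, was 564 and 1732 when scaled by library size only and 460 and 1583 with 12 libraries. The cause of these shifts was not tested.

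No paired analysis was possible because the columns carry no replicate number. Unique exon reads were not run, since each library's column was mapped for 1 measure only. At 3 reads as the floor, Reg3d in all groups, and Reg2 in the Aire and Fezf2 tables, are limited by depth.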
